A study of Prunus persica with 12 samples.

Results

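The 40 genes described here were abundant in every peach flesh library of the series. They were picked on their own expression values, by RPKM (reads of a gene scaled to its length and to the depth of the library) of at least 500 in each of 12 libraries. Their group means over the ripening stages of one cultivar also had to lie within a span of less than 1.5 on the log2(RPKM + 1) scale. Of 27864 gene identifiers 40 qualified, and all 40 also passed the filter on low values used for the tests. Because these values chose the genes, their levels and the stage differences are given as a description without a test.

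RNA-seq was done on the mesocarp (the edible flesh) of Prunus persica fruit, with 2 libraries in each of 6 groups. 'Zhong Hua Shou Tao' (ZH2), with hard melting flesh, slight aroma and Brix 18, was sampled at the stage numbered 2. 'Jin Xiu Huang Tao' (JX2, Brix 12) and 'Yu Lu' (YL2, Brix 14.9) were sampled at the same stage number, both soft melting with strong aroma. 'Hu Jing Mi Lu' is soft melting and was sampled at stages 1, 2 and 3 (HJ1, HJ2 and HJ3), with slight aroma at stage 1, strong aroma later, and Brix of 12.1 in HJ2 and 12.5 in HJ3; none is given for HJ1. Brix measures soluble solids. No treatment or genetic change is given for any group, and the labels do not say how ripe fruit of the same stage number were in different cultivars, nor whether the 2 libraries of each group stem from different fruit. P-values therefore measure only the spread between these libraries, which may be technical. Depth ran from 1205507 to 3222252 reads per library, and the lowest number of reads behind any member in any library was 577.

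Peach is a climacteric fruit: ripening proceeds with a burst of ethylene, the cell walls of the flesh are taken apart as it softens, and sugars and volatile compounds build up. In such tissue a few very abundant transcripts can hold a large part of the messenger RNA. RPKM measures a share of what was sequenced, so that a larger share for one gene lowers the values of the others even where their own transcripts stay at the same number per cell. The files pair none of these identifiers with a gene name, and 0 of the 40 matched the reference gene table. No function, position, sequence or tissue marker can therefore be given, and the genes are described by identifier and level. In bulk tissue, fewer cells of a type and less RNA per cell cannot be told apart.

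The members were not distinguished by length, which was worked back from the values. Their median was 1258.5 bp, with a range of 533 to 3236 bp, against a median of 1298 bp over the 15217 genes tested. The libraries of a group lay closer for the members than for genes at large. The median absolute difference between the libraries of a group was 0.10 on the log2(RPKM + 1) scale for the members and 0.24 for all genes tested. The rule asked for 500 RPKM in every library, whereas the genes tested needed only 1 RPKM in 2 libraries. The 2 sets thus differ in level by choice, and the smaller difference cannot be called particular to the members. The widest gap of a member was 0.49, for ppa013109m in HJ3. Near the lower limit of the rule, the lowest library values were 515 RPKM for ppa008649m and 557 RPKM for ppa011611m just inside, and 495 RPKM for ppb012333m and 487 RPKM for ppa011382m just outside. Near the span limit, ppa012507m (1.458) and ppa013391m (1.396) were just inside, and ppa026970m and ppa012070m (both 1.57) just outside.

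The members together held their smallest share of the transcript pool, here the sum of RPKM over all genes, in HJ1 and their largest in ZH2. In the cultivars at stage 2 they held 31.9% ± 0.0458 in ZH2, 30.3% ± 0.354 in JX2 and 26.6% ± 0.509 in YL2, against 26.8% ± 0.476 in HJ2 (mean ± SD, n = 2 each). Over the Hu Jing Mi Lu stages, HJ1 had 19.3% ± 0.795, HJ2 26.8% ± 0.476 and HJ3 29.1% ± 0.940 (SD, n = 2). The share was thus 7.49 percentage points larger in HJ2 than in HJ1 and 2.35 points larger in HJ3 than in HJ2. The SDs of these differences were 0.926 and 1.05 points. In this share the libraries of HJ1 did not overlap with those of HJ2 or HJ3. The members' own RPKM sum had a mean of 152661 in HJ1, 204146 in HJ2 and 209964 in HJ3. The sum over all genes was 797183 and 785070 in HJ1, 763237 and 760904 in HJ2, and 722918 and 718515 in HJ3. Part of the difference between HJ2 and HJ3 thus lay in the smaller total. Counted as a share of reads, which weights genes by length, the members held 18.7% in HJ1, 25.6% in HJ2 and 26.8% in HJ3.

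**Figure D1:**
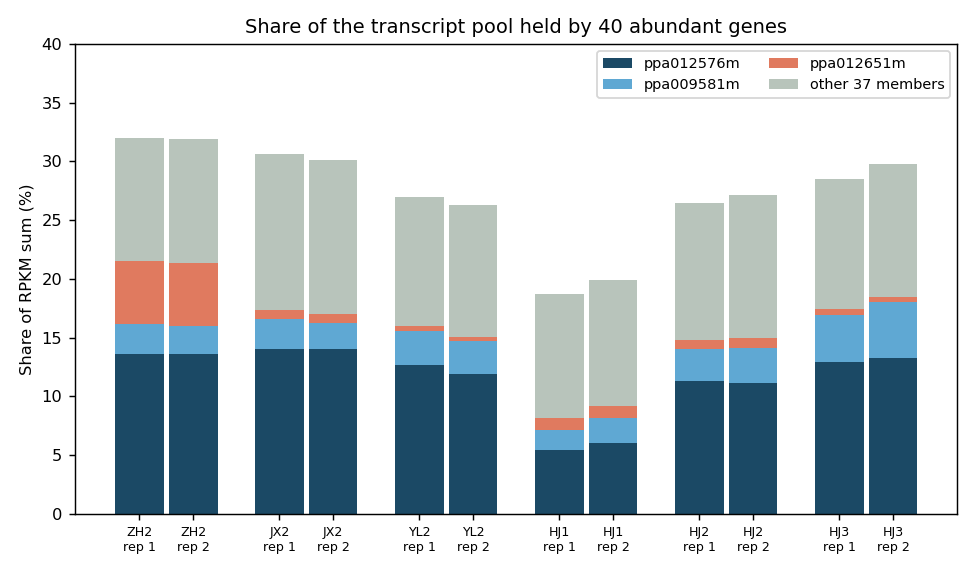
Share of the RPKM sum (%, vertical axis) held by the 40 members in each of the 12 libraries, stacked as ppa012576m, ppa009581m, ppa012651m and the other 37 members. The HJ1 columns are the lowest, at a mean of 19.3%, and the ZH2 columns, at 31.9%, hold a wide band of ppa012651m.

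A single gene, ppa012576m, ranked first of all genes by mean RPKM in every group. Its level was 43331 and 47458 RPKM in HJ1, 86511 and 84972 RPKM in HJ2, and 93123 and 95528 RPKM in HJ3. HJ1 lay far below the later stages, and the 3 stages did not overlap. Of the RPKM sum HJ1 gave it 5.74% ± 0.431, HJ2 11.3% ± 0.118 and HJ3 13.1% ± 0.293 (SD, n = 2), and its mean RPKM in HJ3 was 2.08 times that in HJ1. At stage 2 of the other cultivars it stood at 102432 and 101466 RPKM in ZH2, 103403 and 104169 RPKM in JX2, and 92332 and 86147 RPKM in YL2. No other member exceeded it in any library.

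The second gene by mean level, ppa009581m, followed the same order of stages. Its level was 13429 and 16777 RPKM in HJ1, 20815 and 22672 RPKM in HJ2, and 29178 and 33774 RPKM in HJ3, without overlap between stages. HJ1 gave it a share of 1.91% ± 0.320, HJ2 2.85% ± 0.178 and HJ3 4.37% ± 0.470 (SD, n = 2). Both genes together held 7.65% in HJ1, 14.1% in HJ2 and 17.5% in HJ3.

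The difference between HJ3 and HJ1 in the members' summed share was nearly that of these 2 genes. The members' share was 9.83 percentage points larger in HJ3 than in HJ1, of which ppa012576m made up 7.35 points and ppa009581m 2.46 points. For the other 38 members HJ1 had 11.6% ± 0.0441, HJ2 12.7% ± 0.416 and HJ3 11.7% ± 0.178 (SD, n = 2), so that their net difference between HJ3 and HJ1 was 0.0281 points. Among the 38 single genes differences did occur, and they balanced. From HJ1 to HJ3, 25 of the 40 members held a larger share and 15 a smaller one, with sums of 11.9 and -2.08 points. Over all genes, members included, 6163 held a larger share and 11044 a smaller one. In RPKM itself 20 members were higher in HJ3 and 20 lower.

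**Figure D2:**
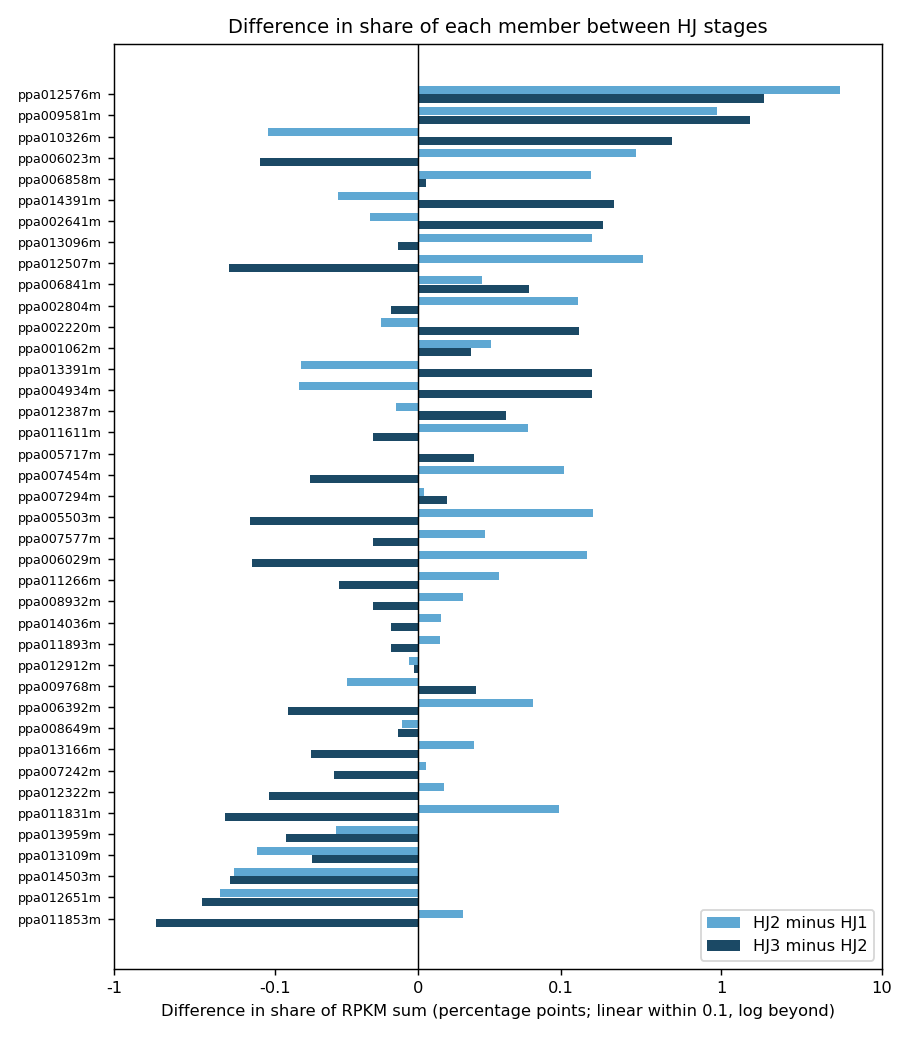
Difference in the share of the RPKM sum (percentage points, linear within 0.1 and logarithmic beyond) for each of the 40 members, HJ2 minus HJ1 in light and HJ3 minus HJ2 in dark bars, ordered by the difference between HJ3 and HJ1. The bars of ppa012576m are the longest at both steps, at 5.51 and 1.84 points.

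By the sign of the difference in mean share alone, most members did not keep 1 direction over both steps. On that basis 6 members held a larger share at both steps: ppa012576m, ppa009581m, ppa006858m, ppa006841m, ppa001062m and ppa007294m. Their summed share was 8.14% at stage 1, 14.9% at stage 2 and 18.3% at stage 3. Some of these steps were small. For ppa006858m HJ3 minus HJ2 was 0.00583 points (SD 0.00973 in HJ2 and 0.0196 in HJ3), with a ratio of mean RPKM of 0.965. For ppa007294m HJ2 minus HJ1 was 0.00434 points (SD 0.00676 in HJ1 and 0.00105 in HJ2). The largest class was of 19 members with their largest share in HJ2, which summed to 4.93% in HJ1, 6.77% in HJ2 and 4.80% in HJ3. Another 9 members had their smallest share in HJ2, with sums of 3.43%, 2.97% and 4.45% at stages 1, 2 and 3. The remaining 6 had a smaller share at each step, with sums of 2.79%, 2.19% and 1.54%. Among the 9, ppa005717m was placed by a difference of only -9.97e-05 points, HJ2 minus HJ1. The share of all genes in each class was not computed, so these counts are not set against genes at large.

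The members whose share was smaller by the most in HJ3 were ppa011853m and ppa012651m. The gene ppa011853m stood at 9613 and 7826 RPKM in HJ1, 8171 and 9096 RPKM in HJ2, and 3970 and 4507 RPKM in HJ3. HJ1 and HJ2 overlapped and HJ3 lay below both, and the share differed by -0.545 points, HJ3 minus HJ2. The gene ppa012651m stood at 8161 and 7524 RPKM in HJ1, 5769 and 5979 RPKM in HJ2, and 3503 and 3524 RPKM in HJ3, without overlap. Its share differed by -0.220 points, HJ2 minus HJ1, and by -0.283 points, HJ3 minus HJ2. At the first step ppa014503m, the shortest member, was next, with a difference in share of -0.179 points (SD of the difference 0.137). That difference was -0.108 points without HJ2 replicate 1 and -0.113 points without HJ1 replicate 1, and -0.0831 points as a share of reads. It had 5705 and 4582 RPKM in HJ1, 3051 and 4121 RPKM in HJ2, and 2313 and 1751 RPKM in HJ3.

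Of the other very abundant members, ppa010326m and ppa005503m differed less in RPKM over the stages than ppa012576m and ppa009581m. The ratio of the highest to the lowest stage mean was 1.20 for ppa010326m and 1.23 for ppa005503m. The gene ppa010326m had 14712 and 15625 RPKM in HJ1, 13341 and 14200 RPKM in HJ2, and 15672 and 17473 RPKM in HJ3. Its stages did not overlap, with HJ2 lowest and HJ3 highest. Its share differed by -0.111 points, HJ2 minus HJ1, by 0.493 points, HJ3 minus HJ2, and by 0.382 points, HJ3 minus HJ1. From HJ2 to HJ3 only ppa012576m and ppa009581m gained more share among the members. The gene ppa005503m had 6158 and 7426 RPKM in HJ1, 7552 and 7952 RPKM in HJ2, and 6354 and 6262 RPKM in HJ3, so that HJ1 and HJ3 overlapped. Together with ppa012576m and ppa009581m they were the 4 members found among the 10 most abundant genes of all 6 groups. Another 5 members entered the 10 most abundant of at least 1 group, namely ppa012651m, ppa011853m, ppa006023m, ppa011831m and ppa012507m.

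**Figure D3:**
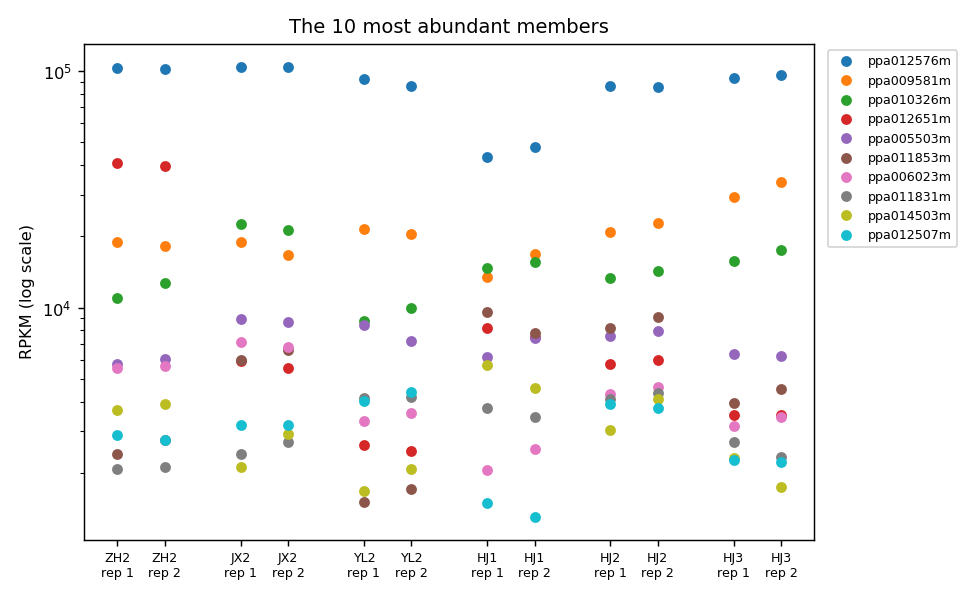
RPKM on a logarithmic axis of the 10 members with the highest mean RPKM, one point per library. The points of ppa012576m lie above all others, lowest in HJ1 at 43331 and 47458 RPKM, and ppa012651m is second only in ZH2, at 40576 and 39701 RPKM.

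The last 3 of these 5 had their highest group means in JX2 (ppa006023m), HJ2 (ppa011831m) and YL2 (ppa012507m). The gene ppa012507m had 1493 and 1302 RPKM in HJ1, 3912 and 3766 RPKM in HJ2, and 2266 and 2222 RPKM in HJ3, with a ratio of means of 2.75 between HJ2 and HJ1. It ranked 54 among all genes in HJ1 and 16 in HJ2. The gene ppa006023m had 2052 and 2535 RPKM in HJ1, 4301 and 4602 RPKM in HJ2, and 3168 and 3466 RPKM in HJ3. The gene ppa011831m had 3766 and 3449 RPKM in HJ1, 4117 and 4335 RPKM in HJ2, and 2716 and 2343 RPKM in HJ3. All 3 were highest in HJ2 among the Hu Jing Mi Lu stages, and in ppa006023m and ppa012507m HJ1 lay lowest.

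The narrowing of the transcript pool was measured by an effective number of genes, which is e raised to the Shannon entropy of the shares and is small when few genes hold most of the sum. With all genes HJ1 had 1948 ± 44.7, HJ2 1131 ± 14.2 and HJ3 896 ± 71.1 (SD, n = 2), and HJ3 had 0.460 times the number of HJ1. Without ppa012576m alone HJ1 had 2447 ± 3.62, HJ2 1856 ± 39.8 and HJ3 1595 ± 116, and the ratio of HJ3 to HJ1 was 0.652. Without ppa012576m and ppa009581m it was 0.734. Without all 40 members HJ1 had 3303 ± 59.99, HJ2 2672 ± 8.51 and HJ3 2408 ± 102, and the ratio was 0.729. Taking out the members beyond these 2 thus moved the ratio little, and it stayed below 1 without any of the 40.

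No other single member moved the ratio of HJ3 to HJ1 far. With ppa012576m kept and each of the other 39 taken out in turn, the ratio lay between 0.451 (without ppa011853m) and 0.494 (without ppa009581m). Without the 30 members of lower mean RPKM, which held 5.21% of the sum in HJ1 and 6.02% in HJ3, it was 0.443. These are sums over genes chosen for their level and have no test.

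Besides the members, 15 further genes were at 500 RPKM or more in every library but had a stage span of 1.5 or more. HJ1 gave them 5.07% ± 0.294 of the RPKM sum, HJ2 8.78% ± 0.166 and HJ3 9.52% ± 0.418 (SD, n = 2). Among them ppa012574m stood at 1581 and 1832 RPKM in HJ1, 7971 and 8318 RPKM in HJ2, and 13324 and 13835 RPKM in HJ3, and ppa014212m at 11312 and 8673, 4217 and 4037, and 753 and 629 RPKM at those stages. Without the 40 members and these 15 genes HJ1 had an effective number of 3799 ± 17.3, HJ2 3717 ± 16.4 and HJ3 3770 ± 31.6, a ratio of 0.992 between HJ3 and HJ1. The 15 genes were set apart by their differences between these same stages, so this ratio is a description and no test. Computed from shares of reads instead of RPKM, the ratio was 0.444 with all genes, 0.626 without the members and 0.843 without all 55, so that part of the narrowing then remained.

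Another gene outside the rule with a larger share in HJ3 was ppa007098m. It had 136 and 139 RPKM in HJ1, 1167 and 1160 RPKM in HJ2, and 5588 and 4375 RPKM in HJ3, and its share was 0.674 points larger in HJ3 than in HJ1. Of the 10 genes whose share was larger by the most in HJ3 against HJ1, 3 were members. Of the 10 whose share was smaller by the most, 3 were members as well. Members with a larger share made up 33.5% of the summed difference of all 6163 genes with a larger share. The single gene ppa012576m made up 20.7% of that sum. On the other side ppb011184m, which held 1.04% in HJ1 and 0.212% in HJ3, differed by -0.828 points.

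**Figure D4:**
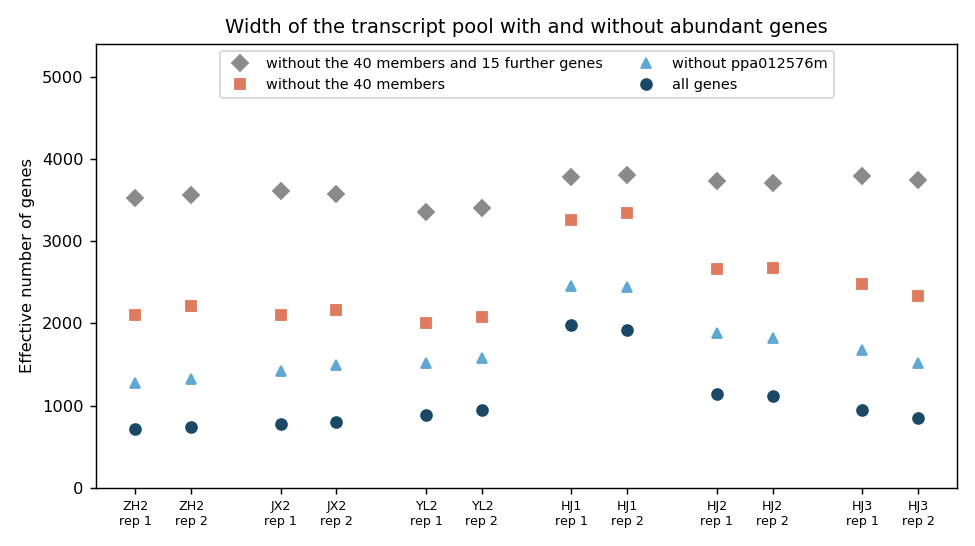
Effective number of genes (vertical axis) in each library for all genes, without ppa012576m, without the 40 members, and without the 40 members and 15 further genes of at least 500 RPKM in every library. With all genes the HJ1 points lie at 1980 and 1916 and all other points at 1141 or below, while without the 55 genes the group means lie between 3385 and 3799.

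Between cultivars at stage 2 the same measures were taken against HJ2. With all genes, the effective number was 729 ± 18.5 in ZH2, 787 ± 22.6 in JX2 and 912 ± 46.8 in YL2, against 1131 ± 14.2 in HJ2 (SD, n = 2 each). The ratios to HJ2 were 0.645 for ZH2, 0.696 for JX2 and 0.807 for YL2. Without the members they were 0.809, 0.798 and 0.763. In YL2 the members' share differed from HJ2 by -0.174 points, less than the SD of the difference of 0.697, and taking them out did not bring YL2 closer to HJ2. In ZH2 and JX2 the members' share was larger than in HJ2, by 5.15 and 3.55 points.

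In ZH2, JX2 and YL2 ppa012576m held a larger share than in HJ2. In YL2 it was 1.02 points above HJ2 (SD of the difference 0.548). The other 39 members together differed there by -1.20 points (SD of the difference 0.595). Against HJ2, 17 members held a larger share and 23 a smaller one in ZH2, 19 and 21 in JX2, and 22 and 18 in YL2. Over all genes, members included, these counts were 6081 and 11019 in ZH2, 6736 and 10091 in JX2, and 7404 and 9726 in YL2. Apart from ppa012576m, the largest gain among members was that of ppa012651m in ZH2, ppa010326m in JX2 and ppa013391m in YL2 (0.322 points). In ZH2, ppa012651m held 5.35% ± 0.0621 of the RPKM sum, against 0.771% ± 0.0212 in HJ2 (SD, n = 2 each), and ppa012576m was 2.35 points above HJ2. Without ppa012651m alone the ratio of effective numbers of ZH2 to HJ2 was 0.744, and without ppa012576m alone it was 0.700. The 37 members besides these genes and ppa009581m held 10.5% ± 0.115 in ZH2, against 11.9% ± 0.395 in HJ2 (SD, n = 2 each). In JX2, ppa012576m was 2.77 points above HJ2 and ppa010326m 1.15 points above. Without ppa012576m alone the ratio of JX2 to HJ2 was 0.785, and without ppa010326m alone it was 0.716.

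Cultivar differences of single members were tested with limma on log2(RPKM + 1) over all 15217 genes and all 12 libraries, with Benjamini-Hochberg adjustment and a threshold of 0.05. The level of 500 RPKM was required in all groups, so these contrasts could move only among high values. The comparisons against HJ2 share the HJ2 libraries. In ZH2 against HJ2, 27 of the 40 members were called, 10 higher and 17 lower, where 24.9% of all genes tested were called, 7.97% higher and 16.9% lower. In JX2, 20 were called, 10 higher and 10 lower (16.5% of all genes, 5.32% higher and 11.2% lower). In YL2, 22 were called, 9 higher and 13 lower (31.8% of all genes, 11.5% higher and 20.3% lower). The smaller spread between libraries of these abundant genes, given above, goes along with this, and its part in the counts was not tested.

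The median log2 difference of the members lay nearer to 0 than that of all genes. It was -0.14 for ZH2, -0.09 for JX2 and -0.03 for YL2, each against HJ2, where all genes tested had medians of -0.23, -0.15 and -0.18. Rescaling each library by its median ratio raised the differences of all genes by a median of 0.22, 0.14 and 0.16, and the calls were then 14 higher and 9 lower in ZH2, 15 and 6 in JX2, and 14 and 9 in YL2. The balance of higher and lower members against HJ2 therefore changed sides with the scaling in ZH2 and YL2, and moved off even in JX2. The shares of all genes called after rescaling were not computed, so this change cannot be called particular to the members. The count for YL2 was 14 without HJ2 replicate 2 and 13 without YL2 replicate 1, and for JX2 it was 13 without HJ2 replicate 1 and 13 without JX2 replicate 2.

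The gene ppa012651m set ZH2 apart. It had 40576 and 39701 RPKM in ZH2, against 5769 and 5979 RPKM in HJ2. It rose 6.83-fold by the ratio of means, with a log2 difference of 2.77 ± 0.0813 (SE, limma adjusted p = 8.39e-09). JX2 had 5949 and 5564 RPKM and YL2 2625 and 2478 RPKM, so ZH2 lay above every other library. ZH2 was 6.97 times JX2 and 15.7 times YL2, with limma adjusted p of 7.43e-09 and 3.44e-10.

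Among the Hu Jing Mi Lu stages this gene was lower at each later stage, and it had the widest range of all members over the 6 groups, 3.98 on the log2(RPKM + 1) scale. The gene ppa013391m rose in ZH2 and in YL2. It had 2136 and 2006 RPKM in ZH2 and 3221 and 2746 RPKM in YL2, against 708 and 641 RPKM in HJ2. The log2 differences were 1.62 and 2.14, each ± 0.118 (SE, limma adjusted p = 2.32e-06 and 2.16e-07). JX2 stood near HJ2, at 579 and 602 RPKM, and was lower than YL2 by a log2 difference of -2.33 (limma adjusted p = 3.21e-07) with ZH2 above JX2 by 1.81 (adjusted p = 2.79e-06).

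The gene ppa011853m fell in ZH2 and YL2. It had 2401 and 2747 RPKM in ZH2 and 1502 and 1708 RPKM in YL2, against 8171 and 9096 RPKM in HJ2. The log2 differences were -1.75 and -2.43, each ± 0.126 (SE, limma adjusted p = 2.12e-06 and 1.37e-07). JX2, at 5996 and 6647 RPKM, was between these groups and HJ2, 3.94 times YL2 (limma adjusted p = 1.27e-06). ZH2 was lower than JX2 by a log2 difference of -1.30 (limma adjusted p = 4.97e-05). This gene was called in all 6 cultivar pairs, as were ppa012322m and ppa011266m. The share of all genes tested that were called in all 6 pairs was not computed.

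The gene ppa012322m had its lowest values in ZH2, at 558 and 557 RPKM, against 1824 and 1682 RPKM in HJ2 (log2 difference -1.65 ± 0.109 SE, limma adjusted p = 1.19e-06). The gene ppa011611m was lowest in YL2, at 557 and 598 RPKM, against 1371 and 1472 RPKM in HJ2 (log2 difference -1.30 ± 0.0918 SE, limma adjusted p = 1.31e-06). The gene ppa002220m rose in all 3 cultivars against HJ2. It had 2761 and 2661 RPKM in ZH2, 2247 and 2292 RPKM in YL2, and 2176 and 2055 RPKM in JX2, against 1034 and 1067 RPKM in HJ2, without overlap. The log2 differences were 1.37, 1.11 and 1.009, each ± 0.105 (SE, limma adjusted p = 3.47e-06, 1.29e-05 and 7.49e-05).

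Over the 6 groups, ppa002804m had its highest mean in JX2 and ppa013959m its lowest. The gene ppa002804m rose to 3708 and 4038 RPKM in JX2, against 2085 and 2157 RPKM in HJ2 (log2 difference 0.87 ± 0.125 SE, limma adjusted p = 0.000783). It was 2.62 times the level of YL2 (limma adjusted p = 1.60e-05), and ZH2 was lower than JX2 by a log2 difference of -1.64 (limma adjusted p = 8.84e-06). The gene ppa013959m fell to 734 and 827 RPKM in JX2, against 2935 and 2768 RPKM in HJ2 (log2 difference -1.87 ± 0.125 SE, limma adjusted p = 3.31e-06) and 2780 and 2715 RPKM in YL2 (log2 difference -1.82, adjusted p = 2.23e-06). The gene ppa006029m had 1069 and 1034 RPKM in JX2, against 2009 and 1877 RPKM in HJ2 (log2 difference -0.88 ± 0.0900 SE, limma adjusted p = 6.58e-05). ZH2 had 1153 and 1214 RPKM and was also lower than HJ2 (log2 difference -0.71, limma adjusted p = 0.000167), and ZH2 against JX2 was not called (adjusted p = 0.242).

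In the pairs without HJ2, 26 members were called in JX2 against YL2, 13 in each direction, where 23.9% of all genes tested were called, 12.5% higher and 11.5% lower. In ZH2 against YL2, 22 members were called, 11 in each direction, beside 18.6% of all genes (9.1% higher, 9.47% lower), and the count was 14 without YL2 replicate 1. In ZH2 against JX2, 20 were called, 8 higher and 12 lower, beside 16.6% of all genes (7.64% higher, 8.92% lower). Named members of ZH2 against YL2 were ppa014503m, higher at 3674 and 3929 RPKM against 1677 and 2077 RPKM (log2 difference 1.025 ± 0.20 SE, limma adjusted p = 0.00400), and ppa006392m, lower at 1315 and 1179 RPKM against 2953 and 2909 RPKM (-1.23 ± 0.122, adjusted p = 3.68e-05). The gene ppa007577m was also lower in ZH2, at 986 and 950 RPKM, against 2113 and 2117 RPKM in YL2 (-1.13 ± 0.0840, limma adjusted p = 4.69e-06).

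**Figure D5:**
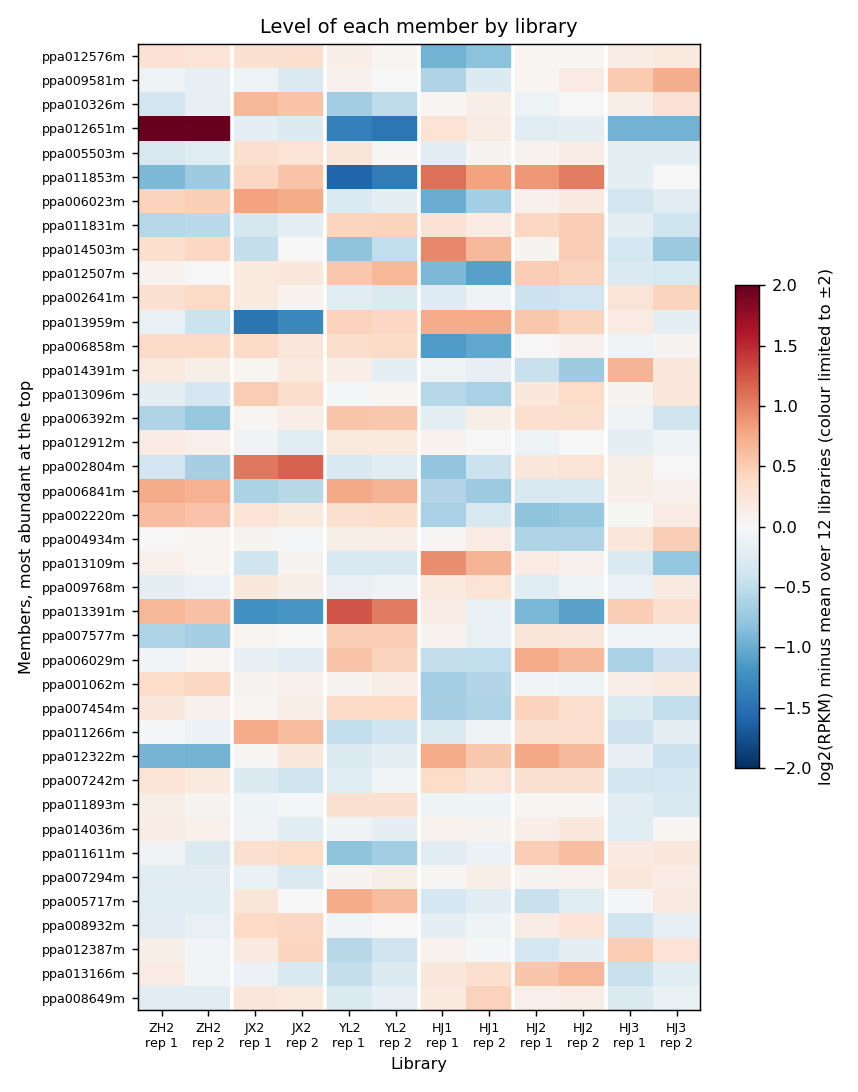
Level of each of the 40 members (rows, most abundant at the top) in the 12 libraries (columns), as log2(RPKM) minus the mean of the gene over the libraries, with colour limited to 2 in either direction. The 2 libraries of a group share their colours, and the deepest colour belongs to ppa012651m in ZH2, with YL2 libraries at 2625 and 2478 RPKM.

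The members with the highest mean level, ppa012576m and ppa009581m, were not called between cultivars in the main fit. Rescaling by median ratio raised the differences of all genes against HJ2 by a median of 0.22 in ZH2 and 0.14 in JX2. The calls of these 2 genes after rescaling are not given, so they are not shown to be level between cultivars. Of the 40 members 4 were called in 0 of the 6 pairs by limma: ppa012576m, ppa009581m, ppa009768m and ppa013109m. The share of all genes tested that were called in 0 pairs was not computed, so this count is not set against genes at large. For ppa012576m the log2 difference was 0.25 ± 0.0982 in ZH2, 0.28 ± 0.0982 in JX2 and 0.06 ± 0.0982 in YL2, each against HJ2 (SE, limma adjusted p = 0.0916, 0.0845 and 0.714). Over the 24 tests of these 4 members, 9 had an unadjusted limma p under 0.05. For ppa009581m the differences were -0.23, -0.29 and -0.05, each ± 0.125 (SE, limma adjusted p = 0.217, 0.149 and 0.803), from 18894 and 18168 RPKM in ZH2, 18946 and 16659 RPKM in JX2, and 21496 and 20446 RPKM in YL2, against 20815 and 22672 RPKM in HJ2.

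Over all 6 groups the members ranged from nearly level to widely different. The smallest spans of log2(mean RPKM + 1) were 0.32 for ppa014036m, with library values from 855 to 1173 RPKM, and 0.34 for ppa012912m, with values from 1699 to 2297 RPKM. The largest were 3.98 for ppa012651m and 2.44 for ppa011853m. The median span was 1.09, and 13 members stayed under 1 while 4 reached at least 2. The group with the highest mean was HJ1 for 7 members, HJ2 for 6, HJ3 for 6, YL2 for 8, JX2 for 8 and ZH2 for 5, so no group held most of the peaks. The lowest mean fell in HJ1 for 10 members, in YL2 for 9 and in JX2 for 4.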

How the data were processed

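The deposited values are RPKM per gene in a separate table for each library, per the file headers. Per the submitters' processing notes the tools were DESeq 1.10.1, HTSeq 0.5.3, TopHat 1.4.0 and Bowtie 0.12.8; their roles are not stated. Genome build, annotation, strand and the handling of multiply matching reads: not given in the sources used here, so genes with near-identical copies are uncertain. Whole reads, depth and gene length were worked back from the RPKM steps in pandas 2.3.3 and numpy 2.4.6 (Python 3.11.15). Whole numbers within 0.001 reads came out for each of the 17316 genes found above 0 in 2 or more libraries. The steps were tested on simulated data. Shares are percentages of the RPKM sum of a library. Tests used limma 3.58.1 (R 4.3.3) on log2(RPKM + 1), for genes of at least 1 RPKM in at least 2 libraries, with 6 group means, 6 residual degrees of freedom and a variance that follows the mean; differences are on that scale. The members, lists and rules were chosen with earlier results of these data known. Named were the 10 members of highest mean RPKM and those among the 10 most abundant genes of a group, at most 2 members higher and 2 lower per comparison by share or by log2 difference (called and without overlap), those with the smallest and largest spans, and genes at the limits of the rule or outside it. Genes that are not reported here by name remain in the sums. Alternatives were pseudocounts, no filter, other scalings, a replicate block, a fit of each pair alone, other limits for membership, shares of reads, another diversity index and each library left out.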

Additional observations from a re-analysis of the deposited data

How the results depend on the processing

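The 24 log2 differences of members named between cultivars kept their sign in all 264 refits run. They stayed called under both pseudocounts, no filter, both scalings, the replicate block and the fit of each pair alone. They had been named as the largest among members already called without overlap, and the refits reuse the same libraries, so this is no independent support. Counts of members called stayed within 1.5 times under both pseudocounts, no filter, both scalings and the replicate block. The shares of all genes called were computed for the main fit only, so the counts under alternatives describe the members alone. In a fit of the 4 libraries of the pair alone, with 2 residual degrees of freedom, they were 9 for JX2 against HJ2, 12 for JX2 against YL2, 9 for ZH2 against YL2 and 11 for ZH2 against JX2. Replicate numbers did not pair the libraries (correlation of differences between same-numbered libraries over genes, -0.0667 to 0.0499 over 15 pairs of groups); with the replicate block the counts were 21 for YL2, 19 for JX2 and 27 for ZH2 against HJ2. Each library left out in turn gave 13 to 18 members for YL2 against HJ2, 13 to 15 for JX2 against HJ2, 18 to 21 for ZH2 against HJ2, 18 to 22 for JX2 against YL2, 14 to 19 for ZH2 against YL2 and 16 to 18 for ZH2 against JX2.

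Without ppa012576m the differences in the members' share were 1.98 points (HJ2 minus HJ1), 0.509 (HJ3 minus HJ2), 2.49 (HJ3 minus HJ1), -1.20 (YL2 minus HJ2), 0.789 (JX2 minus HJ2) and 2.81 (ZH2 minus HJ2). With no limit on the span they were 11.2 (HJ2 minus HJ1), 14.3 (HJ3 minus HJ1), 1.97 (YL2, with the sign turned), 5.44 (JX2) and 6.26 (ZH2). As a share of reads they were 1.26 (HJ3 minus HJ2), 8.15 (HJ3 minus HJ1) and 3.87 (ZH2), and with a limit of 250 RPKM 4.59 (ZH2). Without 1 library they ranged over 6.93 to 8.05 (HJ2 minus HJ1), 1.68 to 3.01 (HJ3 minus HJ2), 9.17 to 10.5 (HJ3 minus HJ1), -0.535 to 0.186 (YL2), 3.22 to 3.89 (JX2) and 4.82 to 5.49 (ZH2).

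The ratio of effective numbers without the members was, by the inverse Simpson index, 0.574 (HJ2 over HJ1), 0.275 (HJ3 over HJ1), 0.329 (YL2 over HJ2), 0.387 (JX2 over HJ2) and 0.393 (ZH2 over HJ2). This index weights the most abundant genes more, and its ratios were lower than those from the Shannon entropy. Its ratios with all genes were not computed, so they do not show what part of the narrowing lay outside the members. By shares of reads the ratio without the members was 0.738 (HJ2 over HJ1), 0.626 (HJ3 over HJ1) and 0.714 (YL2). With only ppa012576m taken out it was 0.758, 0.652, 0.834 (YL2) and 0.700 (ZH2). With the members held at their HJ1 share it was 0.843, 0.775, 0.804 (YL2), 0.834 (JX2) and 0.842 (ZH2). Without 1 library it ranged over 0.799 to 0.819, 0.707 to 0.751, 0.749 to 0.777, 0.788 to 0.809 and 0.789 to 0.829. Without the members and the 15 further genes, in alternatives chosen after seeing the data, the inverse Simpson index gave 1.05, 1.04, 0.684, 0.769 and 0.844, shares of reads 0.908, 0.843, 0.830, 0.911 and 0.914, and single libraries left out 0.975 to 0.981, 0.986 to 0.998, 0.904 to 0.918, 0.963 to 0.972 and 0.949 to 0.957, in the same order. The cause of these shifts was not tested.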
